A study of Mus musculus with 15 samples.

Results

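The genes Fzd4, Fzd5, Gsk3b, Maml1, Hes6 and Numbl belong to the Wnt and Notch signalling pathways, and their chromatin accessibility was followed in mouse pancreatic islets. They were selected on results of these same measurements. Fzd4, Fzd5, Gsk3b, Maml1 and Hes6 have an FDR under 0.05 between genotypes after partial pancreatectomy, and Gsk3b and Numbl have one between times in βKO islets. Those values are therefore given as a description and carry no test. All peaks that the authors assigned to these gene symbols were taken, 1 row per position, which gave 20 peaks of 41774 in 4 tables, at 6 of the 10268 genes with a listed peak.

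Islets of male mice aged 3 months were profiled by ATAC-seq in 15 libraries. The assay relies on the Tn5 transposase, which inserts adapters into DNA that is not covered by nucleosomes. Islets of 4 mice with the genotype Arid1aFl/Fl; MIP-rtTA; TRE-Cre (βKO) and of 4 with Arid1aFl/Fl; MIP-rtTA (control) were taken 6 days after partial pancreatectomy (PPx), the surgical removal of part of the pancreas. Islets of 3 βKO and 4 control mice were taken before PPx, at baseline and with no surgery. Floxed Arid1a and MIP-rtTA were thus present in both genotypes. MIP-rtTA expresses a doxycycline-dependent activator from an insulin promoter, and only the βKO mice carried TRE-Cre, which this activator switches on. Doxycycline was given in the drinking water at 1 g/L for 2 weeks, and PPx followed 1 week after its withdrawal, per the labels' protocols. ARID1A is a subunit of the SWI/SNF complexes, which move nucleosomes. The question addressed by the design is what its deletion in β cells does to islet chromatin, at baseline and when tissue has been lost. Surgery and the days that passed with it cannot be told apart, because no group was left unoperated for the same time.

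In canonical Wnt signalling, secreted Wnt ligands bind Frizzled receptors together with LRP co-receptors, which halts the phosphorylation of β-catenin by a complex that holds the kinase GSK3β. Stabilised β-catenin then acts in the nucleus with TCF/LEF factors. In Notch signalling, contact with a ligand on a neighbouring cell leads to cleavage of the receptor, whose intracellular domain joins the DNA-binding protein RBPJ and a Mastermind-like coactivator to switch on genes of the HES and HEY family. In the developing pancreas, Notch signalling restrains endocrine differentiation, and Wnt signalling has been linked to the growth of β cells.

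Each of the 6 genes had 1 peak of 601 bp per table in which it was listed, and all 20 peaks were in the authors' promoter class, within 1 kb of a start site. The Hes6 and Numbl peaks were listed in the 2 tables that include βKO islets after PPx and in neither of the other 2. The promoters of 4 genes are printed first because the values below turn on them, and because they differ in the short motifs they hold. Fzd5 had the largest genotype change after PPx, Gsk3b the highest level, Maml1 the only TCF/LEF core, and Numbl the largest change over PPx. The sequences are the RefSeq promoter windows of build GRCm38.p6, from 250 bases before to 50 bases after the start, 5′ to 3′ on the strand of the gene. Capitals mark CCAAT and GGGCGG, or their reverse complements ATTGG and CCGCCC, in which neighbouring matches can share bases. Fzd5 lies on the minus strand at chr1:64737701-64738000, Gsk3b on the plus strand at chr16:38088751-38089050, Maml1 on the minus strand at chr11:50292287-50292586 and Numbl on the plus strand at chr7:27258511-27258810.
Fzd5: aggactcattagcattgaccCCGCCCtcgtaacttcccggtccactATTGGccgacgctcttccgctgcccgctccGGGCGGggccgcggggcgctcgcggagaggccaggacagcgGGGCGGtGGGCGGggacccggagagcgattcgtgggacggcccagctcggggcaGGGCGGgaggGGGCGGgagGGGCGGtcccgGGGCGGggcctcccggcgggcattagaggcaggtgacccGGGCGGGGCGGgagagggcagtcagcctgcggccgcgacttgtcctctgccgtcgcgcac
Gsk3b: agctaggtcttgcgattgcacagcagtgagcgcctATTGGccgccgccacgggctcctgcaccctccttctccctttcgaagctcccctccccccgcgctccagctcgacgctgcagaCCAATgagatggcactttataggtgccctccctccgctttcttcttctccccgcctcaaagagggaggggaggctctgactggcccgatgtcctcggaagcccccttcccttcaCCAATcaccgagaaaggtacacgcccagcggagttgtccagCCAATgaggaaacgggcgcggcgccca
Maml1: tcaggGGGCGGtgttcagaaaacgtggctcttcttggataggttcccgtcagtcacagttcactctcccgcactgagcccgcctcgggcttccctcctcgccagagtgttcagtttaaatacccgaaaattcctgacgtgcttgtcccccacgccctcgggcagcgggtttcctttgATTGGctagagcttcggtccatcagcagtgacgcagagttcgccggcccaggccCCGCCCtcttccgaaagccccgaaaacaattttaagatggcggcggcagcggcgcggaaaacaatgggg
Numbl: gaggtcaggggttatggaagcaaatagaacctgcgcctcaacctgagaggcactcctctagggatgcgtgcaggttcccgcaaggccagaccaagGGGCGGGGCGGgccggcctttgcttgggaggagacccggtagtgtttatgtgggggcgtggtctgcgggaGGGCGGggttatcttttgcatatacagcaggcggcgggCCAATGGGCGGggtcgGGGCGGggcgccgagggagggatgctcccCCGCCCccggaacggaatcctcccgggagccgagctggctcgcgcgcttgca

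CCAAT, the motif bound by NF-Y, was found on either strand in 6 of the 6 windows, against 37.4% of all 32851 mouse windows and 41.0% of the 7361 windows of genes with a listed promoter peak. GGGCGG, the GC box bound by Sp1-like factors, was found in 5 of 6, against 35.7% of all windows and 63.0% of those of genes with a promoter peak. The Fzd5 window held 10 GC boxes and 1 CCAAT, that of Fzd4 8 and 1, that of Numbl 6 and 1, those of Maml1 2 and 1 and those of Hes6 2 and 2. Gsk3b was the exception, with 0 GC boxes and 4 CCAAT motifs, at -215, -132, -18 and 24, with the start counted as 1. In Numbl the CCAAT at -47 runs straight into the GC box at -42.

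Motifs of the 2 pathways themselves were counted too, and with 6 windows nothing is read from their number. CTTTGAT, the core of TCF/LEF sites, occurred once, in Maml1 at -78, where it shares 2 bases with the ATTGG at -73, and 3.73% of all windows held it. The core of RBPJ sites, TTCCCAC, was found in 0 of 6 windows, in 6.38% of all windows and in 5.87% of those of genes with a promoter peak. CACNAG, an N-box bound by HES proteins, occurred at 2 places in Hes6, in 42.5% of all windows and in 40.2% of those of genes with a promoter peak. The ETS motif CCGGAAG occurred once, also in Hes6, against 8.86% of all windows. Another 4 motifs were in none of the 6 windows, namely CACGTG (E-box, 7.15% of all windows), TGACGTCA (CRE, 1.79%), TGANTCA (AP-1, 7.81%) and GCGCANGC (NRF1, 9.95%). All motifs were searched on both strands, and a match or its absence describes these letters in these windows only. GC content was between 59.3% in Maml1 and 75.7% in Fzd5, where the median window of a gene with a promoter peak had 60.7%. The ratio of observed to expected CpG was between 0.66 in Hes6 and 0.91 in Fzd5 and Maml1, against a median of 0.76 in windows of genes with a promoter peak and 0.38 in all windows.

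**Figure D1:**
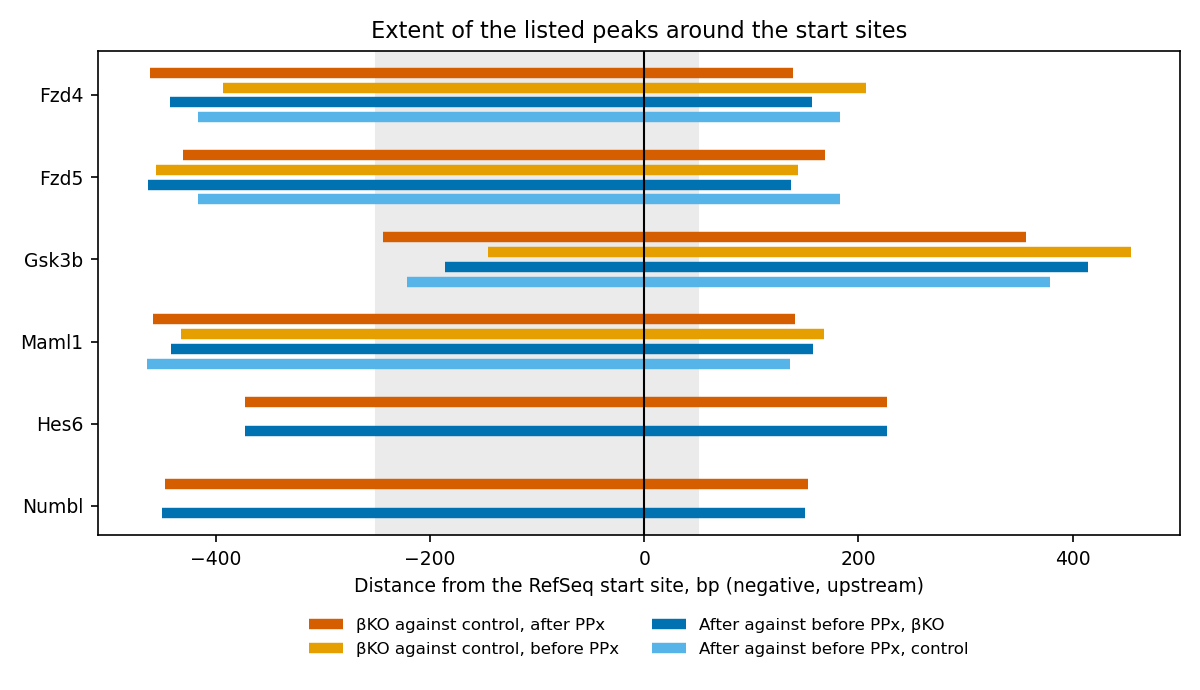
Extent of each listed peak around the RefSeq start site of its gene (horizontal axis, distance in bp, negative upstream; 1 bar per table, grey band the printed window). The peaks of Fzd4, Fzd5, Maml1, Hes6 and Numbl are centred upstream of the start and those of Gsk3b downstream of it.

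In the table of genotypes after PPx, the centre of the peak lay 161 bp upstream of the start for Fzd4 (chr7:89403905-89404505), 131 bp for Fzd5 (chr1:64737581-64738181), 159 bp for Maml1 (chr11:50292195-50292795), 73 bp for Hes6 (chr1:91412995-91413595) and 147 bp for Numbl (chr7:27258314-27258914), on mm10. The Gsk3b peak (chr16:38088757-38089357) was centred 56 bp downstream of its start. The Fzd4 peak also covers the start of Tmem135 on the opposite strand, 144 bp from that of Fzd4, and the Gsk3b peak covers the start of BC031361 on the opposite strand, 259 bp away. Accessibility there cannot be given to 1 of the 2 genes. The plot of peak extents shows that the boundaries moved between tables, since the peaks were set anew in each.

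The values are the authors' log2 concentrations, log2 mean read counts per peak after their normalization, as 1 mean per group. Values per mouse were not analysed here, so the depth is unknown and the spread between mice enters only through the authors' p-values, from which the standard errors (SE) and approximate 95% intervals given here were derived. The 4 tables listed 13111 peaks for genotypes after PPx, 7826 for genotypes before PPx, 12767 for times in βKO and 8070 for times in control islets. Their median log2 changes were 0.61, 0.00, 0.83 and 0.16 in that order, so most listed peaks were higher in βKO islets after PPx than in either group they were set against. At the only Arid1a peak listed, in exon 9 of 20, the authors' deposited tables give 4.04 in βKO and 0.40 in control islets after PPx, and 5.49 in βKO and 1.21 in control islets before PPx. The tables do not measure Arid1a RNA or protein, and the deletion itself was not checked here.

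Peaks of the β cell markers Ins1, Nkx6-1, Slc30a8 and G6pc2 were listed in each table, whereas Ins2, Iapp, Pdx1 and Slc2a2 had no listed peak, so 6 of 10 β cell markers were measured in any table. Of the other islet cells, 3 of 5 α, 1 of 3 δ, 0 of 1 PP and 1 of 2 ε cell markers were measured. Of markers from outside the endocrine cells, 1 of 6 acinar, 2 of 6 duct, 2 of 5 endothelial, 2 of 5 stromal and 2 of 5 leukocyte markers had a listed peak, and Cpa1, Krt19, Pecam1, Pdgfrb and Cd68 had none. After PPx the summed concentration of the β cell marker peaks, on the linear scale, was 228 in βKO and 138 in control islets, with Ins1 and Nkx6-1 called higher. In that comparison the median fold of all listed peaks was 1.53, and 9.88% of them were called higher. For α, δ and ε cell markers the sums were 58.5, 39.9 and 18.8 in βKO and 46.4, 18.4 and 9.25 in control islets, with the Sst and Mboat4 peaks called higher. Outside the endocrine cells, the sums in βKO and control islets were 8.88 and 8.34 for acinar, 57.0 and 37.8 for duct, 43.8 and 40.4 for endothelial, 57.8 and 38.3 for stromal, and 27.2 and 17.9 for leukocyte markers. Of these, the duct marker Ambp was called higher. In βKO islets over PPx the β cell sum was 218 after and 107 before, and the leukocyte sum 27.6 after and 13.7 before. The leukocyte sum rests on 2 peaks, with changes of 2.01 and 0.23. For α, δ and ε cell markers the sums were 58.5, 41.4 and 19.0 after and 33.3, 28.2 and 9.38 before. Those of duct, endothelial and stromal markers were 47.7, 16.9 and 54.7 after and 27.1, 11.6 and 36.4 before. Over PPx in βKO islets the median fold of all listed peaks was 1.78. Slc30a8 and Csf1r were called higher there, where 7.44% of all peaks were. The part of the cell makeup in the values below was not tested. Whole islets were profiled, so more cells of a type and more open chromatin per cell cannot be told apart.

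After PPx, the promoters of Fzd4 and Fzd5, which encode Frizzled receptors for Wnt ligands, were more accessible in βKO than in control islets. The log2 concentration at Fzd5 was 5.52 in βKO and 4.39 in control islets in the authors' deposited table. This is a log2 change of 1.13 (SE 0.35), the largest of the 6, at a deposited FDR of 0.0311. At Fzd4, whose receptor also binds norrin, the deposited levels were 5.92 in βKO and 4.98 in control islets, a change of 0.94 (SE 0.35) at an FDR of 0.0486. The Fzd5 peak was called in 4 of 4 βKO and 3 of 4 control libraries and the Fzd4 peak in 4 of 4 of both groups, per the authors' deposited table. Both promoters were thus called in most libraries of both genotypes, and their group means differed. Both genes were selected on this comparison, in which the median change of all listed peaks was 0.61.

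Gsk3b, which encodes the kinase GSK3β of the β-catenin destruction complex, had the most accessible of the 6 promoters. Its level was 6.89 in βKO and 6.02 in control islets after PPx, per the authors' deposited table, above 99.1% of listed peaks in mean concentration. The log2 change was 0.87 (SE 0.28, deposited FDR 0.0351), the most precisely measured of the 6.

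On the Notch side, Maml1 encodes a Mastermind-like coactivator of the RBPJ complex. Its promoter read 4.66 in βKO and 3.58 in control islets after PPx, per the authors' deposited table, a change of 1.07 (SE 0.39) at an FDR of 0.0471. Hes6 encodes a basic helix-loop-helix protein of the HES family that counteracts Hes1 in mouse. Its deposited levels were 4.52 in βKO and 3.49 in control islets, a change of 1.03 (SE 0.35) at an FDR of 0.0402. These were the promoters where the number of libraries with a call differed most between genotypes. Maml1 was called in 4 of 4 βKO and 1 of 4 control libraries and Hes6 in 4 of 4 βKO and 0 of 4 control libraries, per the authors' deposited table. The Hes6 peak was listed only in comparisons that include βKO islets after PPx, where it is high. Nothing is therefore read from its contrast in calls.

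Numbl encodes Numb-like, an endocytic adaptor related to Numb, an antagonist of Notch. Its levels were 4.40 in βKO and 3.58 in control islets after PPx, per the authors' deposited table, with calls in 3 of 4 βKO and 1 of 4 control libraries. The Numbl peak was listed only in the same comparisons as that of Hes6, so nothing is read from these calls either. The change of 0.82 (SE 0.40) was the smallest of the 6 and had an FDR of 0.104, with an unadjusted p of 0.0427.

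**Figure D2:**
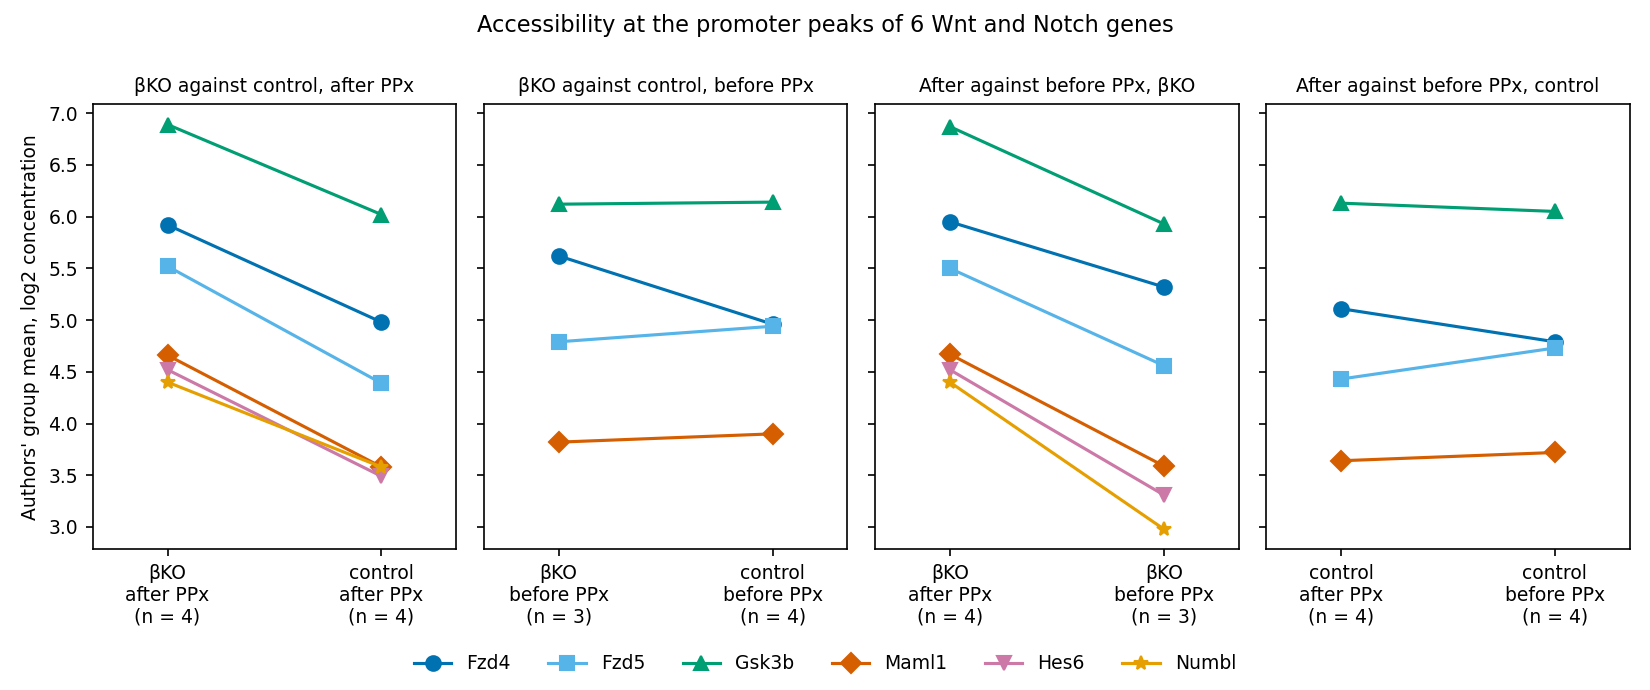
Authors' group mean log2 concentration (vertical axis) at the promoter peak of each gene, 1 panel per deposited table and 1 line per gene, with the number of mice per group under the axis. Lines fall from left to right for all 6 genes in the panels of genotypes after PPx and of times in βKO islets, while in the other 2 panels the Gsk3b and Maml1 lines are near level. Of all listed peaks, 90.3% were higher in βKO than in control islets after PPx, and 97.1% were higher after than before PPx in βKO islets.

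In the order of levels, Gsk3b stood first, Fzd4 next and then Fzd5 in both genotypes after PPx. Maml1, Hes6 and Numbl followed between 4.66 and 4.40 in βKO and between 3.58 and 3.49 in control islets in the authors' deposited table. The spread of single levels over mice was not analysed here, so it is not known which neighbours differ in this order. All peaks have the same width, so these levels are not affected by length.

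The count of 5 of 6 genes called higher after PPx is fixed by how the genes were selected, and nothing is read from it. Among all peaks of that comparison 9.88% were called higher. Relative to the median change of all listed peaks, the genes were higher by between 0.21 (Numbl) and 0.52 (Fzd5) on the log2 scale, less than the general shift of 0.61. Relative to the median of peaks of like mean concentration, they were higher by between 0.10 (Gsk3b) and 0.45 (Maml1), with 0.17 at Fzd4 and 0.39 at Fzd5. A larger change than that of Fzd5 was found at 5.84% of all listed peaks, and a larger one than that of Numbl at 26.5%. Promoter peaks as a class had a median change of 0.71, and 14.3% of them were called higher.

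The calls lay close to the threshold. Just inside it stood Fzd4 at 0.0486 and Maml1 at 0.0471. Just outside stood Cir1, a corepressor of RBPJ, at 0.0515 with a log2 change of 1.07, and Tcf7l1, a TCF/LEF factor, at 0.0565 with a change of 1.11, per the authors' deposited table. At an FDR under 0.1, 25.6% of all peaks were higher between genotypes after PPx and 30.9% between times in βKO islets. At an FDR under 0.01 the shares were 0.0229% and 0.0392%. With the p-values adjusted by Benjamini-Hochberg over all listed peaks, 4.13% and 4.49% passed at 0.05.

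**Figure D3:**
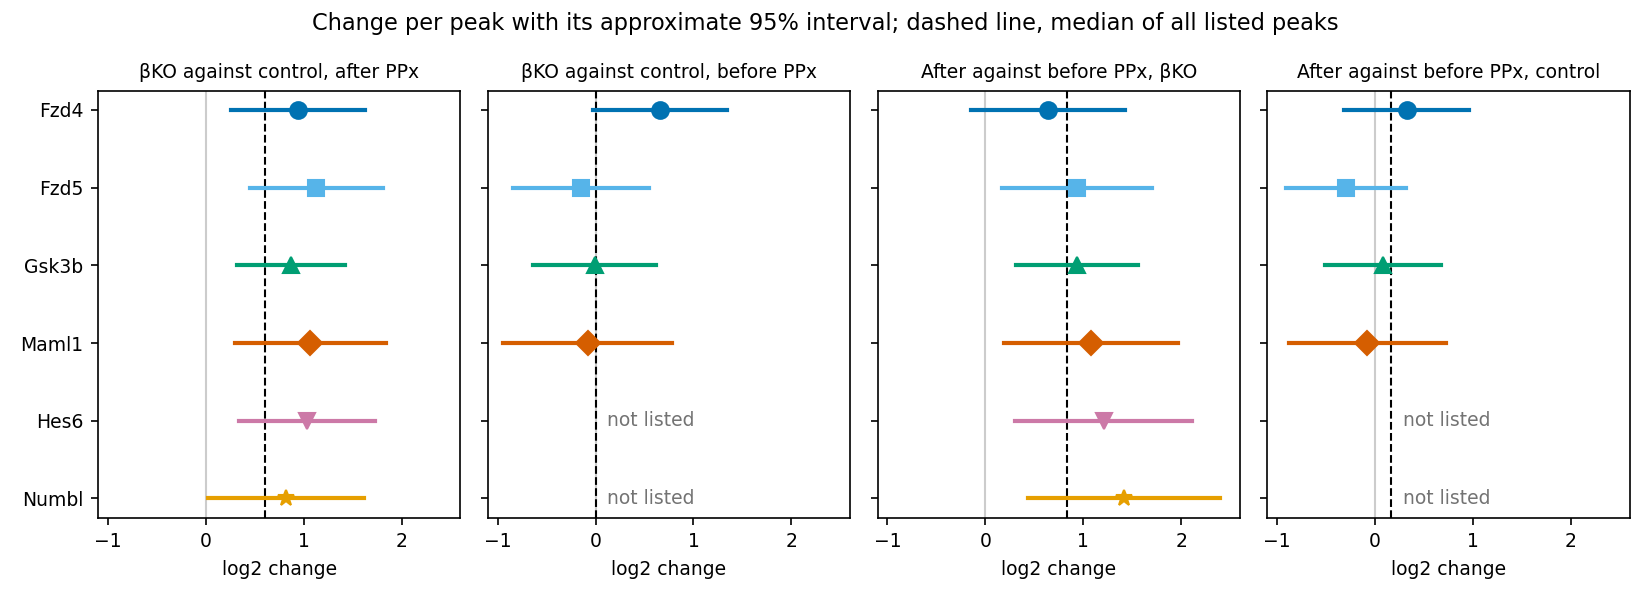
Log2 change of each gene (horizontal axis; βKO minus control, or after minus before PPx) with its approximate 95% interval, 1 panel per table. The dashed line is the median of all listed peaks, and in each panel the interval of every listed gene includes it.

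Before PPx, none of the 4 genes with a listed peak was called between βKO and control islets, where 0.0128% of all peaks were called higher. The only peak called there was the exon peak of Arid1a, the floxed gene itself (FDR 0.00187). This comparison shares no library with that of genotypes after PPx. It does share the 3 βKO libraries before PPx with the comparison of times, which took part in selecting Gsk3b. Fzd4 stood out among the 4, with deposited levels of 5.62 in βKO and 4.96 in control islets. Its change of 0.66 had an approximate 95% interval of -0.02 to 1.34, an unadjusted p of 0.0578 and a deposited FDR of 1, per the authors' table. A larger change was found at 3.35% of the 7826 listed peaks.

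Fzd5 read 4.79 in βKO and 4.94 in control islets before PPx per the authors' deposited table, a change of -0.15 with an interval of -0.84 to 0.54. Gsk3b read 6.12 in βKO and 6.14 in control islets, a change of -0.01 (interval -0.64 to 0.62), per the authors' deposited table. Maml1 read 3.82 in βKO and 3.90 in control islets, a change of -0.08 (interval -0.95 to 0.79), with calls in 2 of 3 βKO and 2 of 4 control libraries in the authors' deposited table. These 3 promoters were thus near equal in the 2 genotypes before surgery, but the interval of each includes a change as large as its own change relative to the median after PPx. Relative to the median of the table, none of the 4 passed the approximate normal test (Benjamini-Hochberg adjusted p of 0.998 for each), which 0.0128% of peaks passed. At an unadjusted p under 0.05, 0 of the 4 genes were higher or lower, against 66 higher and 180 lower peaks in the whole table.

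In βKO islets, all 6 promoters read higher after PPx than before it, as did 97.1% of all listed peaks. Only Gsk3b and Numbl had an FDR under 0.05, where 7.44% of all peaks were called higher. The comparison shares the 4 βKO libraries after PPx with the comparison of genotypes after PPx, so its values are not a second measurement of the same group. Numbl had the largest change, with deposited levels of 4.40 after and 2.98 before PPx. The difference was 1.42 (SE 0.50) at a deposited FDR of 0.0491, and 7.10% of listed peaks had a larger one. Its peak was called in 3 of 4 libraries after and 0 of 3 before PPx.

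Hes6 read 4.52 after and 3.31 before PPx in βKO islets, per the authors' deposited table, a change of 1.21 (SE 0.46) at an FDR of 0.0577, with calls in 4 of 4 libraries after and 0 of 3 before. Maml1 read 4.67 after and 3.59 before PPx, a change of 1.08 (SE 0.45, FDR 0.0718), with calls in 4 of 4 libraries after and 2 of 3 before, per the authors' deposited table. The Hes6 and Numbl peaks were called in no βKO library before PPx. They were listed only in tables that hold βKO islets after PPx, where they are high. Nothing is therefore read from their low levels or lack of calls before surgery.

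Among the Wnt genes, Gsk3b read 6.87 after and 5.93 before PPx in βKO islets, per the authors' deposited table, a change of 0.94 (SE 0.32, FDR 0.0451). Fzd5 had the same change of 0.94 (SE 0.39), with levels of 5.50 after and 4.56 before PPx, with FDR 0.0705, as deposited by the authors. Fzd4 read 5.95 after and 5.32 before PPx, a change of 0.64 (SE 0.40, FDR 0.176), per the authors' deposited table. The change of Fzd4 was 0.19 below the median of all peaks, and those of the other 5 genes were above it by between 0.11 and 0.59. In the whole table, 69.6% of listed peaks had a larger change than Fzd4.

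**Figure D4:**
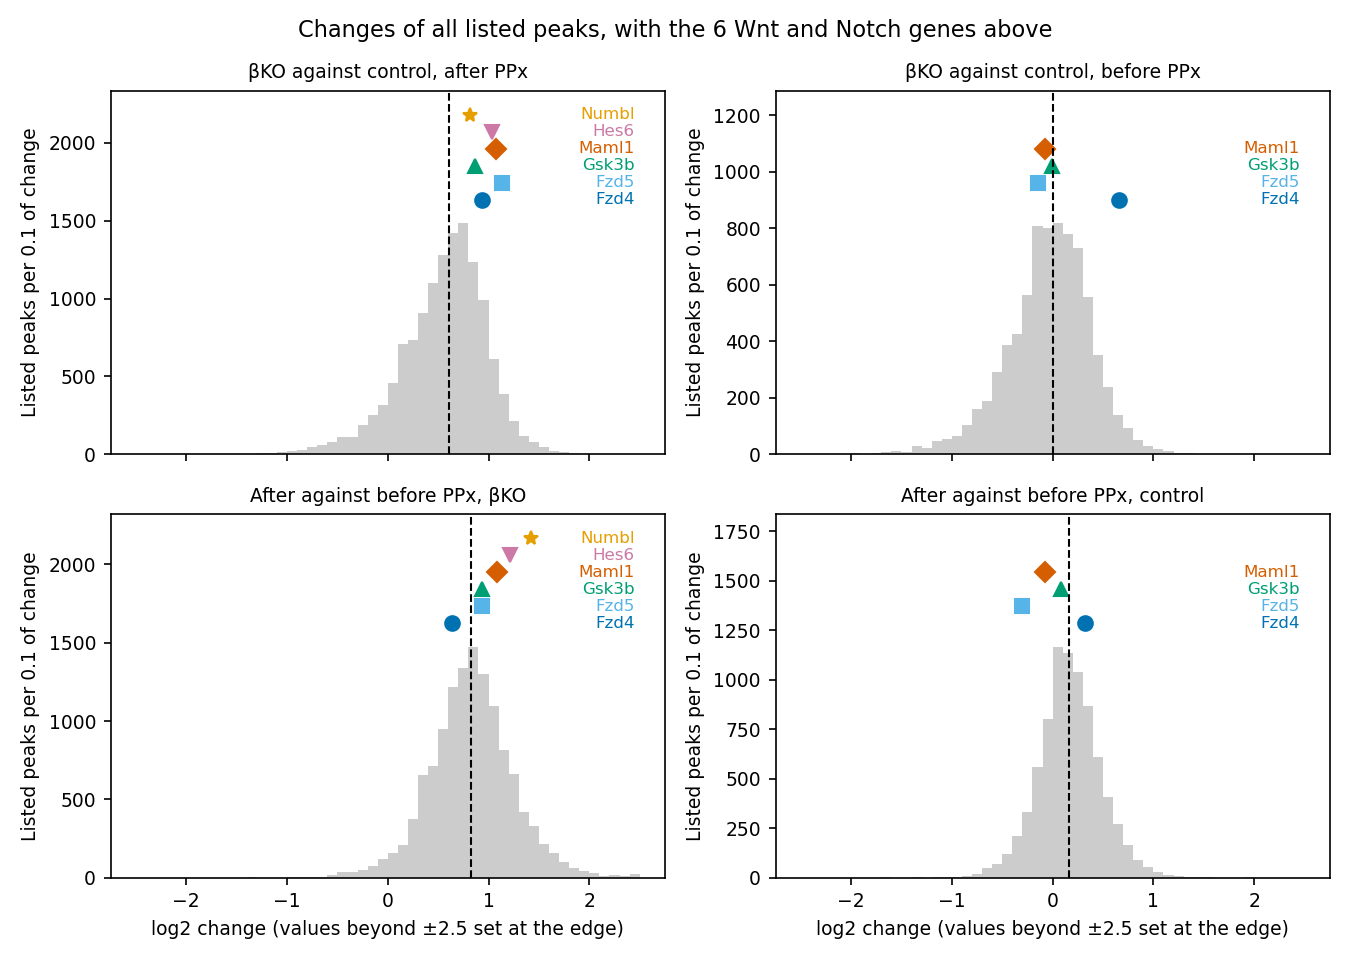
Distribution of the log2 change over all listed peaks of each table (grey, peaks per 0.1 of change), with the value of each gene marked above it and the median as a dashed line. Fzd4 lies in the upper tail between genotypes before PPx (0.66) and below the median between times in βKO islets (0.64), and Fzd5 lies in the lower tail between times in control islets (-0.30).

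In control islets over PPx, none of the 4 genes listed was called, nor was any of the 8070 peaks (0%). The comparison shares the 4 control libraries after PPx with the comparison by which 5 of the genes were selected, in which low levels in these libraries took part. Its values are therefore a description too, with no test. Fzd5 read 4.43 after and 4.73 before PPx per the authors' deposited table, a change of -0.30 (interval -0.91 to 0.31), and 93.7% of all listed peaks had a larger change. Fzd4 read 5.11 after and 4.79 before PPx, a change of 0.32 (interval -0.32 to 0.96), per the authors' deposited table. The 2 receptor promoters thus had nearly the same level before surgery and opposite signs of change over it, though both intervals include 0.

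Gsk3b read 6.13 after and 6.05 before PPx in control islets per the authors' deposited table, a change of 0.08 (interval -0.51 to 0.67). Maml1 read 3.64 after and 3.72 before PPx, a change of -0.08 (interval -0.88 to 0.72), with calls in 1 of 4 libraries after and 2 of 4 before, per the authors' deposited table. Every deposited FDR of the 4 genes was 0.999. The lowest value relative to the median was that of Fzd5, at -0.46. At an unadjusted p under 0.05, 0 of the 4 genes and 196 higher and 8 lower peaks of the table stood out.

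Set side by side, the genotype change at Fzd5 was 1.13 after and -0.15 before PPx, a difference of 1.28 (approximate 95% interval 0.31 to 2.25). At Maml1 the genotype change was 1.07 after and -0.08 before, a difference of 1.15 (-0.01 to 2.31). At Gsk3b it was 0.87 after and -0.01 before, a difference of 0.88 (0.04 to 1.72). Fzd4 departed from these, with 0.94 after and 0.66 before and a difference of 0.28 (-0.69 to 1.25). The median difference over all 7504 peaks matched between the tables was 0.64, with quartiles of 0.35 and 0.93, and 8.13% of them exceeded Fzd5 while 79.5% exceeded Fzd4. Every interval given here includes the median of 0.64, and 92.2% of the matched peaks had a positive difference. The values after PPx had chosen the genes, so the differences at the genes are descriptions. Whether Fzd4 differs from the other 3 genes was not tested.

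The level of a group was not on exactly the same scale in every table. At the 6 genes, βKO islets after PPx differed by at most 0.03 between the 2 tables that hold them. Before PPx, βKO islets read between 0.19 and 0.30 lower in the table of times than in the table of genotypes, where the median over all matched peaks was 0.23 lower. Levels are therefore compared within a table only.

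For each of the 4 genes listed throughout, the promoter with the most similar 8 group levels was sought among 4855 promoter peaks present in all 4 tables. For Maml1 it was the promoter of Wdr33, at a Euclidean distance of 0.09 log2 units, with no group further apart than 0.05. Fzd4 was nearest to Nectin3 (0.21), Gsk3b to Zfp446 (0.21) and Fzd5 to Api5 (0.23). The median distances to all these promoters were between 1.58 and 5.44, but a nearest promoter lies below the median distance by construction. How near the nearest promoter of other genes lies was not computed. The values of the 4 tables share libraries, and the likeness describes levels only.

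Of a list of 87 Wnt pathway genes, 30 had a listed peak between genotypes after PPx. Csnk1a1, Ctnnbip1 and Gsk3a were called higher beside Fzd4, Fzd5 and Gsk3b, 0 were called lower, and 24 did not pass. By peak this was 13.6% of 44, beside 9.88% of all peaks, and 3 of these 6 peaks are those by which the genes were selected. The median change of the list was 0.63, and that of the 41 peaks outside the 6 genes was 0.61, equal to that of all listed peaks. By role, 2 of 9 measured receptor genes and 4 of 5 cytoplasmic genes were called, and 0 of 8 ligand, 0 of 4 extracellular inhibitor and 0 of 4 nuclear genes. Both called receptor genes, and Gsk3b among the cytoplasmic ones, are genes selected on this comparison. These counts are by gene, and no share over all genes was computed, so nothing is read from them.

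The promoter of Gsk3a, which encodes the kinase most closely related to GSK3β, read 5.90 in βKO and 4.71 in control islets after PPx, per the authors' deposited table, a change of 1.19 at an FDR of 0.0272. Ctnnbip1, which encodes an inhibitor of β-catenin binding to TCF, read 4.52 in βKO and 3.48 in control islets, a change of 1.03 (FDR 0.0478), per the authors' deposited table. At Csnk1a1, the gene of casein kinase 1α in the destruction complex, the called peak was distal intergenic. It read 4.20 in βKO and 2.56 in control islets, a change of 1.64 (FDR 0.0212), in the authors' deposited table. That peak was listed only in comparisons that include βKO islets after PPx, where it is high. Its change and its call are therefore a description only. The Csnk1a1 promoter peak (0.83, FDR 0.0806) and a further 2 distal peaks (0.77 and 0.26, FDR 0.177 and 0.514) did not pass, per the authors' deposited table. With promoter peaks alone, 5 Wnt genes were called. The 3 added genes thus encode 2 kinases and an inhibitor that act on β-catenin.

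Among Wnt genes called in none of the 4 tables, the promoters of highest mean concentration after PPx were those of Lgr4, Tle4, Fzd8 and Fzd1. Lgr4, an R-spondin receptor gene, read 6.81 in βKO and 6.00 in control islets per the authors' deposited table, a change of 0.81 (FDR 0.0687). The corepressor gene Tle4 read 6.36 in βKO and 5.81 in control islets (0.55, FDR 0.171), per the authors' deposited table. The further Frizzled genes Fzd8 and Fzd1 had changes of 0.78 and 0.81, with FDRs of 0.0735 and 0.0677 in the authors' deposited table. These 4 changes were between 0.06 below and 0.20 above the median of all peaks.

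Among 60 Notch pathway genes, 28 had a listed peak between genotypes after PPx, of which Hes6 and Maml1 were called higher, 0 lower, and 26 did not pass. By peak this was 5.0% of 40, beside 9.88% of all peaks, and both peaks are those by which the genes were selected. The median change of the 37 peaks outside the 6 genes was 0.62. Rbpj, which encodes the DNA-binding partner of the Notch intracellular domain, read 5.78 in βKO and 4.83 in control islets per the authors' deposited table, a change of 0.95 at an FDR of 0.0521. Numb, the relative of Numbl, read 5.42 in βKO and 4.59 in control islets (0.84, FDR 0.0532), per the authors' deposited table. The target gene Hey2 and the ligand gene Jag1 had changes of 0.70 and 0.55 at FDRs of 0.0912 and 0.190 in the authors' deposited table. These are the 4 Notch promoters of highest mean concentration among genes called in none of the 4 tables, and their changes lay between 0.06 below and 0.34 above the median. The Adam17 promoter, at a gene called over PPx in βKO islets, read 5.76 in βKO and 4.94 in control islets here (0.82, FDR 0.0532), per the authors' deposited table.

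In βKO islets over PPx, 3 of 31 measured Wnt genes were called higher (Csnk1a1, Gsk3a and Gsk3b) and 3 of 29 measured Notch genes (Adam17, Mib1 and Numbl), with 0 lower. By peak these were 9.09% of 44 and 7.5% of 40, beside 7.44% of all peaks. At Gsk3a the change was 1.06 (FDR 0.0491), and at the 2 called Csnk1a1 peaks, both outside the promoter class, it was 2.79 and 1.93, in the authors' deposited table. Both Csnk1a1 peaks were listed only in comparisons that include βKO islets after PPx, where they are high. Their changes and the call of Csnk1a1 are therefore a description only. Adam17, which encodes a protease that can cut the Notch receptor, read 5.78 after and 4.61 before PPx, a change of 1.17 (FDR 0.0426), per the authors' deposited table. Mib1, which encodes a ubiquitin ligase that activates Notch ligands, read 5.03 after and 3.72 before PPx, a change of 1.32 (FDR 0.0438), in the authors' deposited table. The median change of peaks outside the 6 genes was 0.78 for Wnt and 0.79 for Notch, beside 0.83 for all peaks.

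Before PPx, 0 of 20 measured Wnt genes and 0 of 23 measured Notch genes were called between genotypes. Over PPx in control islets, 0 of 23 Wnt and 0 of 20 Notch genes were called. At an unadjusted p under 0.05, the only peaks of either list in these 2 comparisons were 3 higher Notch peaks over PPx in control islets. They were at Kat2b, an acetyltransferase gene of the Notch nuclear complex, and at Aph1b, both named here after their values were seen. At Kat2b the changes were 1.17 and 0.96, at unadjusted p of 0.00892 and 0.0402. A further Kat2b peak had a change of 0.43 at an unadjusted p of 0.329. At Aph1b the change was 0.73 at an unadjusted p of 0.0281. The deposited FDR of each of these peaks was 0.999. The list medians were -0.09 for Wnt and 0.04 for Notch between genotypes before PPx, and 0.14 and 0.27 over PPx in control islets.

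**Figure D5:**
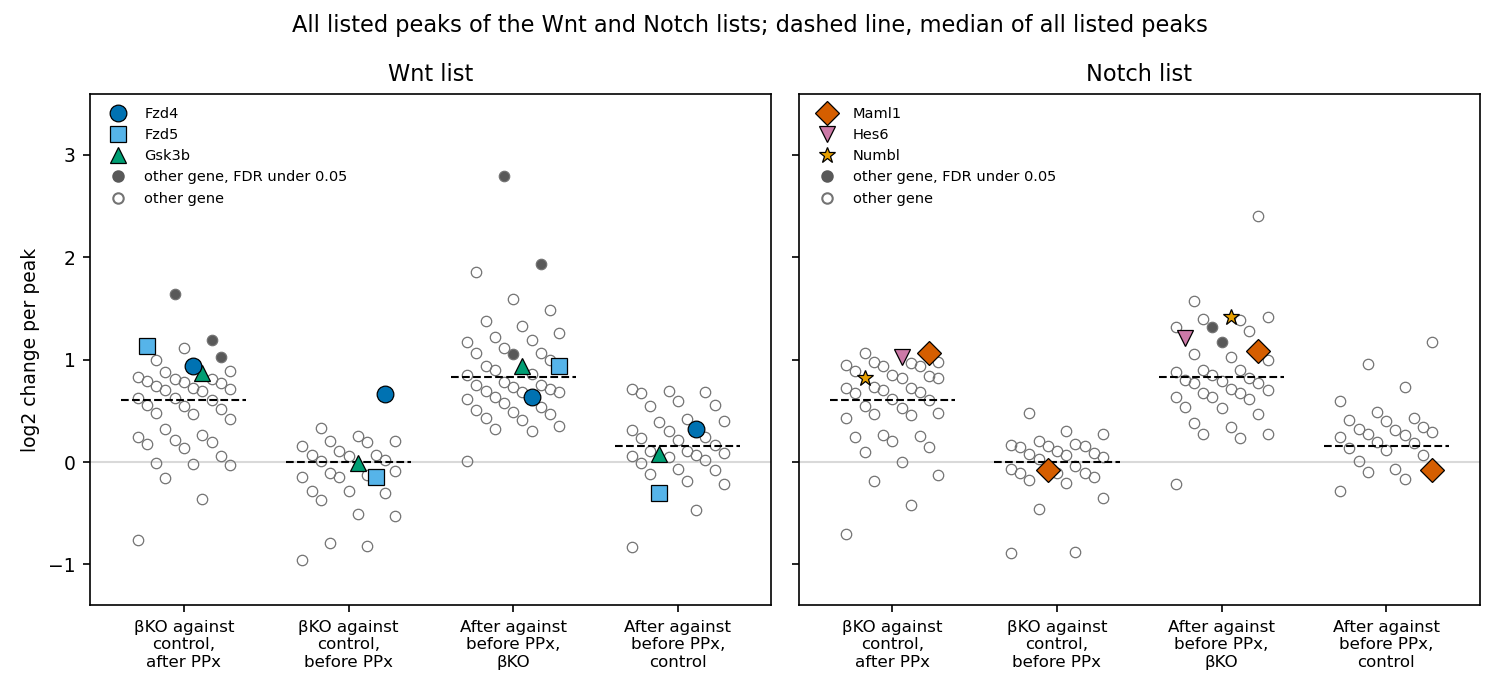
Log2 change (vertical axis) of every listed peak of the Wnt list (left) and the Notch list (right) in the 4 comparisons, with coloured markers for the 6 genes, filled grey points for other called peaks and the median of all listed peaks dashed. Both lists scatter around the dashed median in each comparison, and filled points occur only between genotypes after PPx and between times in βKO islets.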

How the data were processed

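Per the submitters' processing notes, the authors used cutadapt, BWA, MACS, DiffBind and ChIPseeker with mm10 (GRCm38). Not given in the sources used here are the versions, settings and order of these tools and whether reads were shifted for Tn5. The libraries were transposed at 37 °C for 30 min from 40000 islet cells and read as single ends of 75 bp, per the labels' protocols. Each of the 4 deposited tables holds 1 comparison. Per the file headers, it gives log2 concentrations of both groups, a log2 fold, a p-value, an FDR and how many libraries of each group had a peak call. The authors' fold subtracts βKO from control, or after from before. The opposite sign is used here, so that positive means higher in βKO or after PPx.

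Rows that repeat a position were counted once, and 1 empty row was dropped. A peak is called at the authors' FDR under 0.05. The SE is the change divided by the normal quantile of the deposited p-value. Where that p-value was 0.5 or more, or the change under 0.1, the SE was replaced by the median SE in the peak's bin of mean concentration, with 10 bins. Each change minus its table's median was tested by an approximate normal test with Benjamini-Hochberg adjustment over all listed peaks. This step was tried on simulated data, with changes larger than any at the 6 genes. The trial thus does not show whether changes of their size would be found. The result of the normal test is given between genotypes before PPx only, the comparison that shares no library with that of genotypes after PPx. The test treats the median as known. Peaks of different tables were matched where they shared at least 1 bp. Promoter windows came from RefSeq, matched by symbol for 6 of 6 genes, using for Hes6 the window that overlaps the peak. Python 3.11.15, pandas 2.3.3, numpy 2.4.6, scipy 1.17.1 and matplotlib 3.10.9 were used.

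The 6 genes, the pathway and marker lists and the tests were chosen with earlier results of these data known. Beside the 6 genes, the text names each list gene with an FDR under 0.05, the 4 other promoters of highest mean concentration per list between genotypes after PPx, and the promoter of most similar levels. Genes at the edge of the threshold, Kat2b, Aph1b and Spen were added. Alternatives were another FDR threshold, another adjustment, another median, other standard errors and a larger overlap between matched peaks. Peaks that share libraries or lie near each other are not independent.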

Additional observations from a re-analysis of the deposited data

How the results depend on the processing

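The number of called genes depended on the threshold and on the adjustment. Between genotypes after PPx, 5 of the 6 genes were called at an FDR under 0.05, 5 also at 0.1 and 0 at 0.01, and 2 with the p-values adjusted by Benjamini-Hochberg over all listed peaks. In βKO islets over PPx the 2 called genes became 5 at 0.1, 0 at 0.01 and 0 with that adjustment. Of all peaks, 25.6% were higher at 0.1 between genotypes after PPx and 30.9% in βKO islets over PPx. With the adjustment these shares were 4.13% and 4.49%, by peak, while the counts here are by gene. Among the 30 measured Wnt genes, 11 were called at 0.1 between genotypes after PPx and 4 with the adjustment. In βKO islets over PPx, 12 of 31 were called at 0.1 and 1 with the adjustment. Among the 28 measured Notch genes, 10 were called at 0.1 between genotypes after PPx and 0 with the adjustment. In βKO islets over PPx, 12 of 29 were called at 0.1 and 1 with the adjustment. That gene was Spen, of the Notch nuclear complex (change 2.4, authors' unadjusted p 0.000211). It was not among the 3 Notch genes called at the authors' FDR under 0.05. A stricter or looser threshold changes these counts by construction, while with the other adjustment the cause was not tested. The deposited FDR was at its upper limit for 4534 of the 13111 peaks between genotypes after PPx. In βKO islets over PPx this held for 2669 of 12767 peaks, including the Spen promoter peak. Such peaks are part of the shares of all peaks given here. Of the changes relative to the median, 20 of 20 kept their sign against the median of promoter peaks and 19 of 20 against that of peaks of like concentration (10 bins), the exception being Maml1 between genotypes before PPx, at 0.00. With the median SE of the bin, the interval of the genotype change after minus before PPx was -0.02 to 1.78 at Gsk3b and 0.02 to 2.28 at Maml1. It was 0.33 to 2.23 at Fzd5 and -0.62 to 1.18 at Fzd4. Taken instead as the PPx change in βKO minus that in control islets, the intervals were -0.0008 to 1.72 at Gsk3b and -0.03 to 2.35 at Maml1. They were 0.26 to 2.22 at Fzd5 and -0.70 to 1.34 at Fzd4. The genes were selected on values after PPx and most matched peaks had a positive difference, so nothing is read from which intervals include 0. No paired analysis was possible because the labels number each library once and the tables hold group means only. Leaving out a replicate was not run for the same reason, and precision is limited by 3 or 4 mice per group.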
